A study of Gallus gallus with 2 samples.

Results

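The thin filament is the actin strand of the sarcomere, and 9 of its genes are described here in the embryonic chicken (Gallus gallus) heart. They were chosen by symbol: cardiac troponin T (TNNT2), the slow and fast troponins C (TNNC1 and TNNC2), slow skeletal troponin I (TNNI1), a tropomyosin (TPM1), cardiac and skeletal alpha-actin (ACTC1 and ACTA1), and the pointed-end proteins tropomodulin 1 (TMOD1) and leiomodin 2 (LMOD2). All 9 were found, among 16737 genes in all. Fertilized brown leghorn eggs were kept for 24 h at 37 °C and then given 20 µl through the air sac, either of 1X PBS (control) or of spermine NONOate at 10 µM, a nitric oxide (NO) donor that also leaves spermine behind. Embryos were opened at 45 h, a time that the labels do not clearly tie to the start of incubation or to the injection. Hearts of 10 embryos were pooled in each group and sequenced as 1 library, so the study holds 1 library of PBS hearts and 1 of donor-treated hearts, called the PBS pool and the NO pool here. No group received spermine alone, so NO and spermine cannot be told apart, and no difference below has a replicate check or a test.

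In striated muscle, troponin C binds calcium, troponin I holds the filament in its inactive state, and troponin T ties both to tropomyosin, the rod that lies along actin and blocks myosin at rest. When calcium rises, troponin C releases the block by troponin I, and tropomyosin moves aside. Tropomodulin caps the slow-growing end of the filament, and leiomodin promotes filament assembly at that end. The early heart is known to make skeletal and smooth muscle forms of several of these proteins before the cardiac forms prevail.

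Levels are FPKM, the fragments per kilobase of transcript after scaling to sequencing depth, as the authors computed them, so levels of different genes can be set side by side per length. Each carries a deposited 95% interval, which covers the estimation within its own library and not the spread between pools. Each difference is the log2 of the NO level over the PBS level, after 1 FPKM was added to both. Of the 9 genes, 8 exceeded a 2-fold difference toward the NO pool and 0 toward the PBS pool, and all 9 passed a filter of 1 FPKM on average. Among all 10824 genes that passed it, 3.65% were past 2-fold toward the NO pool and 10.3% toward the PBS pool. Among the 621 genes that averaged 100 FPKM or more, 7.73% were past 2-fold toward the NO pool. The intervals lay apart with the NO pool higher for 9 of 9, against 27.4% of all genes, so intervals that lie apart are common at this depth. The median log2 difference of the 9 was 2.35, beside −0.11 over all genes, and together they took 0.475% of the summed FPKM in the PBS pool and 2.11% in the NO pool.

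The pools differed in more than these genes. The summed FPKM was 487268 in the PBS pool and 536333 in the NO pool, and the fragments implied by the interval widths summed to at least 18262183 and 28802333. All 14 matched heart muscle genes outside the thin filament were past 2-fold toward the NO pool, with log2 differences from 1.72 to 3.17, and their summed level was 1183 FPKM in the PBS pool and 8561 FPKM in the NO pool. Heart muscle genes were present in both pools, from 0.565 to 535 FPKM in the PBS pool. Markers of several other tissues differed the opposite way. The skeletal muscle and somite list, described further below, summed to 36.4 FPKM in the PBS pool and 3.44 FPKM in the NO pool. Most of this sum came from TCF15 and PAX3. The 4 epicardium genes were mixed, although they summed to 8.87 FPKM in the PBS pool and 3.09 FPKM in the NO pool. UPK3B (4.50 and 0 FPKM, PBS pool first) and TCF21 (2.53 and 0.980) were lower in the NO pool. TBX18 (1.29 and 1.23) had overlapping intervals. WT1 (0.553 and 0.883), which did not pass the filter, was higher in the NO pool with intervals apart. Among the 3 epicardium genes that passed the filter, UPK3B alone was past 2-fold toward the PBS pool, as were 10.3% of all genes that passed. UPK3B passed the filter through its PBS level alone, so nothing is read from this count. All 4 matched neural genes and all 4 matched endoderm genes were at least 2-fold lower, with summed levels of 59.1 and 5.76 FPKM for the neural genes and 1003 and 210 FPKM for the endoderm genes, PBS pool first. The erythroid genes went the same way as heart muscle, with all 4 that passed the filter at least 2-fold higher and a median log2 difference of 3.69, and the endothelial median was 0.76. The part of these shifts in the differences below was not tested. In pooled hearts, more muscle cells, more RNA per muscle cell and a different share of other tissue cannot be told apart.

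**Figure D1:**
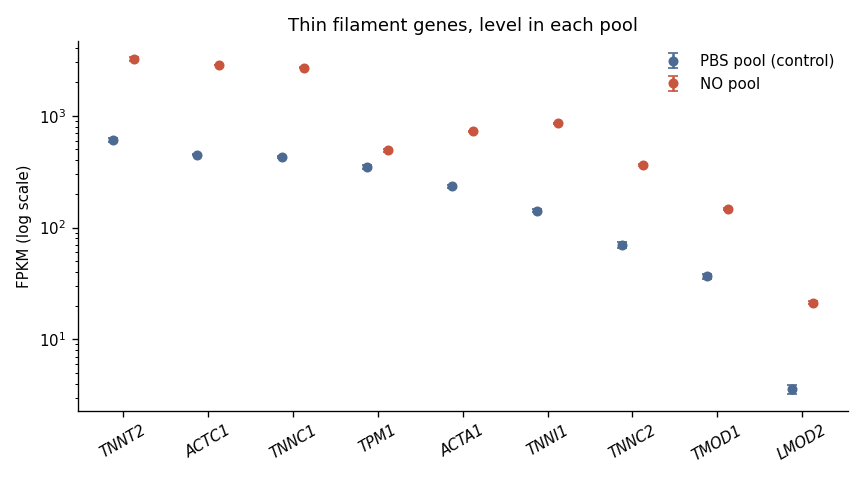
Level of each thin filament gene in FPKM on a log scale, PBS pool and NO pool, with the deposited 95% interval as bars, which are mostly smaller than the points. TNNT2, ACTC1 and TNNC1 lead in both libraries, and TPM1 has the smallest gap, from 349 to 489.9 FPKM.

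Of the troponin genes, 4 are among the 9, and they were from 5.09-fold to 6.22-fold higher in the NO pool. TNNT2 (ENSGALG00000000302, chromosome 26, 789216 to 797274 in galGal4), which anchors the troponin complex on tropomyosin, was at 604 FPKM (interval 577 to 631) in the PBS pool and 3189 FPKM (3057 to 3321) in the NO pool. It was the most abundant of the 9 genes in both libraries and moved from place 110 to place 19 among all genes. On the log2 scale it differed by 2.40 (2.31 to 2.49), or 5.27-fold. The interval of TNNT2 is wider than counting error alone would give, since it implies 2057 and 2336 fragments although its FPKM differs 5.28 times. TNNT2 makes many splice forms, and the deposited gene table does not separate them.

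TNNC1 (ENSGALG00000001459, chromosome 12, 538818 to 544257), the calcium sensor of heart and slow muscle, was at 430.2 FPKM (420.5 to 439.8) in the PBS pool and 2681 FPKM (2662 to 2701) in the NO pool. Its log2 difference was 2.64 (2.60 to 2.67), or 6.22-fold. TNNC2 (ENSGALG00000006835, chromosome 20, 10856322 to 10858120), the calcium sensor of fast skeletal muscle, was lower in both libraries, at 70.1 FPKM (66.1 to 74.2) and 361 FPKM (354 to 369). This is a log2 difference of 2.35 (2.26 to 2.43), or 5.09-fold. The fast gene was thus shifted nearly as far as its slow relative, and it made up 14.02% of troponin C FPKM (13.3% to 14.8%) in the PBS pool and 11.9% (11.7% to 12.1%) in the NO pool. These share intervals do not overlap, yet TNNC2 fell by 2.14 percentage points, and by 1.35 as a share of the fragments that the intervals imply.

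TNNI1 (ENSGALG00000000313, chromosome 26, 774173 to 777490), the inhibitory subunit of slow skeletal muscle that mammals also use in the fetal heart, was at 141 FPKM (137 to 146) in the PBS pool and 860.4 FPKM (852 to 869) in the NO pool. The log2 difference came to 2.60 (2.55 to 2.65), or 6.05-fold. TNNI2 (ENSGALG00000006591, chromosome 5, 13473897 to 13476632), the fast skeletal form, stayed far below it at 2.27 FPKM (1.62 to 2.92) and 6.56 FPKM (5.70 to 7.43), a log2 difference of 1.21 (0.88 to 1.54). TNNI2 was no longer 2-fold higher with a pseudocount of 5 FPKM or between the nearest interval bounds. TNNT3 (ENSGALG00000006572, chromosome 5, 13389729 to 13416288), the fast skeletal troponin T, was at 0.622 FPKM (0.326 to 0.918) and 0.441 FPKM (0.236 to 0.645), and its intervals overlapped between the pools. Of the fast troponins, TNNC2 alone was abundant in these hearts. TNNT1 and TNNI3 matched no row by symbol and are not analysed here.

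Troponin I and troponin T genes lie near each other on 2 chromosomes. TNNI1 and TNNT2 are 11725 bases apart on chromosome 26, and TNNI2 and TNNT3 are 57608 bases apart on chromosome 5. A single annotated gene lies between TNNI1 and TNNT2, LAD1 (ENSGALG00000000309, 782937 to 787983), named here for its place after its values were seen. LAD1 was at 7.70 FPKM (6.68 to 8.73) in the PBS pool and 6.22 FPKM (5.53 to 6.92) in the NO pool. Between the pools it differed on the log2 scale by −0.27, between neighbours at 2.60 and 2.40. Between TNNI2 and TNNT3 lie LSP1 (ENSGALG00000006583, 13433999 to 13472383), known as an actin-binding protein of white blood cells, and PRR33, also named for their place. LSP1 was at 57.8 FPKM (54.4 to 61.1) in the PBS pool and 16.5 FPKM (15.3 to 17.7) in the NO pool, a log2 difference of −1.74. PRR33 was at 0.0176 FPKM in the PBS pool and listed at 0 in the NO pool.

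The ratios among the troponins changed less than their levels. Troponin C stood to troponin T as 0.827 (0.788 to 0.869) in the PBS pool and 0.954 (0.915 to 0.995) in the NO pool. Troponin I stood to troponin T as 0.238 (0.225 to 0.251) and 0.272 (0.260 to 0.284). Both ratios were higher in the NO pool, by 0.21 (0.11 to 0.30) and 0.19 (0.09 to 0.29) on the log2 scale. TNNC1 stood to TNNI1 as 3.04 (2.92 to 3.16) and 3.12 (3.08 to 3.16), with overlapping intervals.

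**Figure D2:**
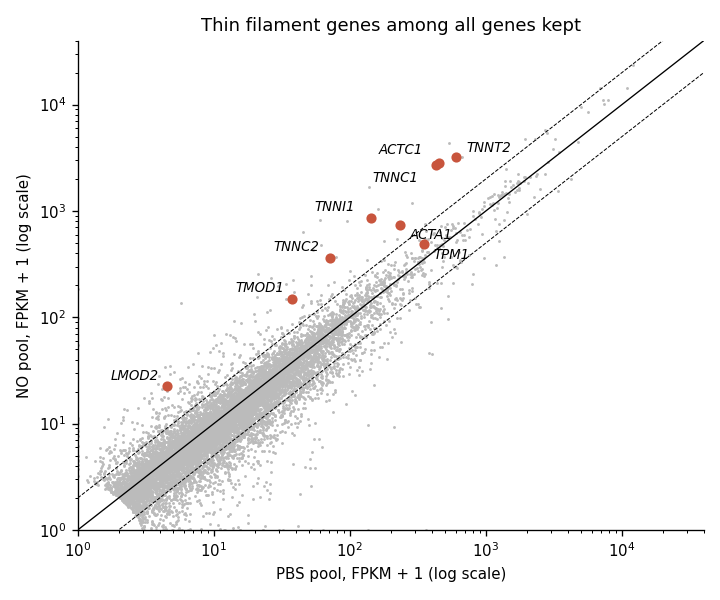
Control against NO pool for the 10824 genes kept (grey points, FPKM + 1 on log axes), with the 9 thin filament genes in red, the line of equal levels solid and the 2-fold lines dashed. Of the 9 genes 8 lie above the upper 2-fold line, and TPM1 lies between the lines.

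TPM1, a tropomyosin, differed least of the 9 genes. TPM1 (ENSGALG00000003521, chromosome 10, 3667601 to 3687521) was at 349 FPKM (336 to 363) in the PBS pool and 489.9 FPKM (474 to 506) in the NO pool. On the log2 scale it differed by 0.49 (0.42 to 0.56), or 1.40-fold, and it is the member that did not reach 2-fold. TPM1 is known to make muscle and non-muscle tropomyosins from alternative promoters and exons, which a gene-level value sums. From the fourth most abundant of the 9 genes in the PBS pool it became the sixth in the NO pool, below TNNI1 and ACTA1.

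Another tropomyosin gene had the shift that TPM1 lacked. TPM4 (ENSGALG00000002563, chromosome 28, 4195684 to 4203208), not among the 9, was at 664 FPKM (655 to 673) in the PBS pool and 3236 FPKM (3219 to 3253) in the NO pool, a log2 difference of 2.28 (2.26 to 2.31). In the NO pool its interval overlapped that of TNNT2, and it led all thin filament families there. TPM3 (ENSGALG00000013537, chromosome 25, 1329824 to 1341487) was lower in the NO pool, at 211 FPKM (201 to 221) and 121 FPKM (116 to 127). TPM4 therefore went from 54.2% (53.4% to 55.05%) of tropomyosin FPKM to 84.1% (83.7% to 84.5%), while TPM1 went from 28.5% to 12.7% and TPM3 from 17.2% to 3.15%. As a share of the fragments that the intervals imply, which is not per length, the TPM4 shift was 14.6 percentage points in place of 29.9. Implied fragments also fall where an interval is wider than counting error alone would give, so this is not a plain share of reads. Tropomyosin as a family stood to troponin T as 2.02 (1.93 to 2.12) in the PBS pool and 1.21 (1.16 to 1.26) in the NO pool, a log2 difference of −0.75, which was −1.91 with TPM1 and TNNT2 alone. Reads of exons that tropomyosin genes share can be divided unevenly, so this split is less certain than the intervals. TPM2 matched no row by symbol and is not analysed here.

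Actin, the body of the filament, showed the largest difference of the 9 genes and the widest spread among paralogues. ACTC1 (ENSGALG00000009844, chromosome 5, 31546120 to 31552902), the actin of adult heart muscle, was at 448 FPKM (443 to 452) in the PBS pool and 2834 FPKM (2825 to 2843) in the NO pool. Its log2 difference was 2.66 (2.65 to 2.67), or 6.32-fold. ACTA1 (ENSGALG00000011086, chromosome 3, 39337938 to 39339803), the actin of adult skeletal muscle that embryonic heart also makes, was at 233 FPKM (228 to 239) and 730.1 FPKM (723 to 738). This is a log2 difference of 1.64 (1.60 to 1.68), or 3.12-fold. Both actins were higher, but ACTC1 more so, and the ratio of ACTC1 to ACTA1 went from 1.92 (1.87 to 1.97) to 3.88 (3.84 to 3.92). As a share of both, ACTC1 went from 65.7% (65.2% to 66.3%) to 79.5% (79.3% to 79.7%), a shift of 13.8 percentage points that was 5.20 by implied fragments.

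The sum of ACTC1 and ACTA1 kept its ratio to troponin T. It stood at 1.13 (1.08 to 1.18) in the PBS pool and 1.12 (1.07 to 1.16) in the NO pool, a log2 difference of −0.01 (−0.10 to 0.08). At the protein level the filament holds several actins to each troponin, which transcript levels need not follow.

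Non-muscle actins moved the other way, apart from the chromosome 10 row of ACTG1. ACTB (ENSGALG00000009621, chromosome 14, 4169149 to 4172343), beta-actin of the general cytoskeleton, was at 3380 FPKM (3239 to 3520) in the PBS pool and 1530 FPKM (1467 to 1594) in the NO pool, or 2.21-fold lower. ACTG1, gamma-actin, stood on 2 rows with a sum of 1995 and 938 FPKM, or 2.13-fold lower; its row on chromosome 18 (9470422 to 9472834) went from 1643 to 553 FPKM, while its row on chromosome 10 (2014376 to 2015913) was at 352 and 385 FPKM. Both genes were less than 2-fold lower after upper quartile scaling, at −0.97 and −0.92, as was ACTG1 after trimmed mean scaling, at −0.95. Both remained lower under every scaling tried. ACTC1 was at 0.132 times the level of ACTB (0.127 to 0.138) in the PBS pool and at 1.85 times (1.78 to 1.93) in the NO pool. The 6 actins looked for by symbol, of which 5 were matched, summed to 6410.5 and 6785 FPKM. Within that sum, ACTC1 went from 6.98% to 41.8% and ACTB from 52.7% to 22.6%.

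A smooth muscle type of actin was higher as well. The row labelled ACTG2 (ENSGALG00000006343, chromosome 6, 18777068 to 18785435) was at 355 FPKM (349 to 360.4) in the PBS pool and 752 FPKM (745 to 758) in the NO pool, a log2 difference of 1.08 (1.05 to 1.11). In the deposited table it lies between STAMBPL1 and FAS on chromosome 6. In the RefSeq table of a later assembly, GRCg7b, the actin gene beside STAMBPL1 and FAS is ACTA2 and ACTG2 is on chromosome 22, so the name on this row is uncertain. Of the 4 matched smooth muscle markers, 0 were at least 2-fold higher and 1 was at least 2-fold lower. Among all genes that passed the filter these shares were 3.65% and 10.3%, and 4 genes are too few to set against them. TAGLN, an actin-binding protein of smooth muscle that early heart also makes, was at 67.8 and 66.1 FPKM. Muscle actins have nearly the same coding sequence, as do ACTB and ACTG1, and reads in shared stretches can be divided wrongly between them.

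**Figure D3:**
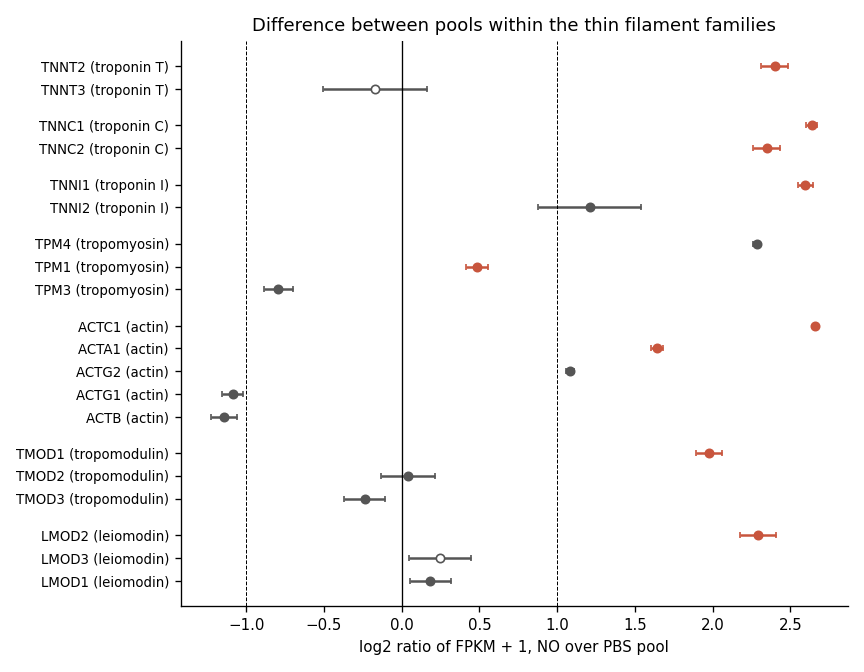
Log2 ratio of FPKM + 1, NO over PBS pool, for the 20 matched genes of the 7 thin filament families, with the 95% interval from both deposited intervals; the 9 members are red, paralogues grey, and open points are below a mean of 1 FPKM. TNNC1 and TNNC2 both lie past the upper 2-fold line (dashed). TPM3, ACTG1, ACTB, TMOD3 and TNNT3 lie below 0 beside relatives past that line, and the interval of TNNT3 spans 0.

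Of the pointed-end genes, the heart forms were higher in the NO pool. TMOD1 (ENSGALG00000002125, chromosome Z, 70616134 to 70631808), the tropomodulin of heart muscle, was at 36.7 FPKM (34.7 to 38.7) in the PBS pool and 147 FPKM (144 to 151) in the NO pool. The log2 difference came to 1.98 (1.89 to 2.06), or 3.93-fold. TMOD3 (ENSGALG00000004710), the widely expressed form, was at 12.1 FPKM (11.2 to 13.0) and 10.1 FPKM (9.44 to 10.8), and TMOD2 (ENSGALG00000004740), known from neurons, was at 1.55 FPKM (1.31 to 1.79) and 1.62 FPKM (1.42 to 1.81). TMOD1 thus went from 72.9% (71.1% to 74.5%) to 92.6% (92.2% to 93.05%) of tropomodulin FPKM. TMOD4 matched no row by symbol and is not analysed here.

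LMOD2 (ENSGALG00000008805, chromosome 1, 22047780 to 22055493), the leiomodin of heart muscle, was the scarcest of the 9 genes, at 3.57 FPKM (3.23 to 3.91) in the PBS pool and 21.3 FPKM (20.7 to 22.0) in the NO pool. Between the pools it differed on the log2 scale by 2.29 (2.17 to 2.41), or 4.89-fold on the FPKM + 1 scale. At this low level the added 1 FPKM weighs, and the plain ratio of FPKM was 5.98. LMOD1 (ENSGALG00000028721), the smooth muscle form, was at 12.7 FPKM (11.7 to 13.7) and 14.5 FPKM (13.7 to 15.4), with intervals that just overlapped. LMOD3 (ENSGALG00000018946), a skeletal muscle form, was at 0.179 FPKM (0.0635 to 0.295) and 0.401 FPKM (0.264 to 0.538). LMOD2 and LMOD1 changed order, since LMOD2 made up 21.7% (19.7% to 23.9%) of leiomodin FPKM in the PBS pool and 58.8% (57.2% to 60.4%) in the NO pool. The opposed end proteins also shifted against each other, with TMOD1 at 10.3 times LMOD2 (9.22 to 11.5) in the PBS pool and 6.90 times (6.64 to 7.17) in the NO pool.

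**Figure D4:**
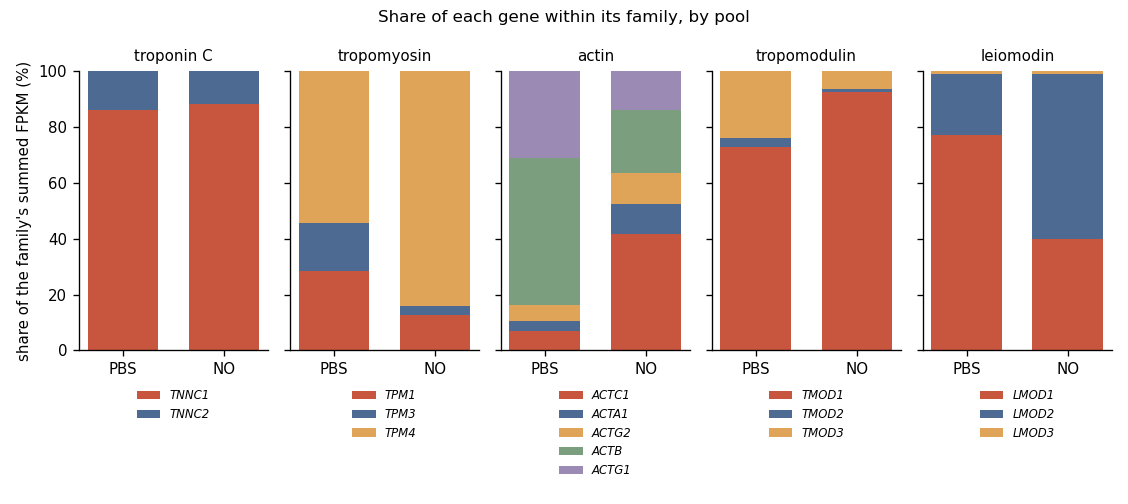
Share of each gene in the summed FPKM of its family, in percent, for the PBS and NO pools. TNNC1, ACTC1, TMOD1 and LMOD2 hold larger shares in the NO pool, while TPM1 is at 12.7% there and TPM4 at 84.1%.

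Within each library the 9 genes kept clearly separate levels, and no neighbours in either order had overlapping intervals. In the PBS pool the order was TNNT2, ACTC1, TNNC1, TPM1, ACTA1, TNNI1, TNNC2, TMOD1 and LMOD2. In the NO pool it was TNNT2, ACTC1, TNNC1, TNNI1, ACTA1, TPM1, TNNC2, TMOD1 and LMOD2. The sole change of order was that TPM1 and TNNI1 traded places around ACTA1. Outside the fixed lists, genes near in level to TNNT2 over the 2 libraries included ND3 and RPL14, at distances of 1.28 and 1.47 on the log2 scale, and ND3 was the nearest. Both distances exceed a 2-fold step.

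Set against the 14 other heart muscle genes, most members had a like difference on the FPKM + 1 scale. The added 1 FPKM shrinks the differences of scarce genes on this list. Without it, MYOZ2 (33 implied fragments in the PBS pool) was 14.6-fold higher in place of 5.91-fold, and TTN 7.31-fold in place of 5.05-fold. Both plain ratios exceeded that of ACTC1, the highest of the 9 at 6.33. With the added 1, the median log2 difference of those 14 was 2.36. TNNT2, TNNC1, TNNC2, TNNI1, ACTC1 and LMOD2 lay from −0.07 to 0.30 relative to this median. TMOD1 was 1.30-fold below the median, with 2 of the 14 genes, RYR2 and MYOM2, lower than it. That place depends on the added 1 FPKM. By plain ratio of FPKM, TMOD1 was at 4.01, below MYOM2 at 4.13 and RYR2 at 4.47. ACTA1 was 1.64-fold below the median and TPM1 3.65-fold below it, and both had smaller differences than all 14 of these genes, of which RYR2 was the lowest at 1.72. MYL2 and MYL3, the ventricular myosin light chains, had larger differences than any of the 9, at 3.02 and 3.17, as did MYBPC3, cardiac myosin-binding protein C, at 3.17 and CSRP3, a Z-disc protein, at 2.97. MYL4, another myosin light chain, differed less, by 2.06, which is below the median of the 14 genes. It was at 284 FPKM in the PBS pool and 1190 FPKM in the NO pool. The median member difference relative to this list was −0.01, and it was −0.67 against those of the list that averaged 100 FPKM or more, an alternative chosen after the data were seen.

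Skeletal muscle markers were low in both pools or lower in the NO pool. Of the 7 matched genes of skeletal muscle and somites, 0 were at least 2-fold higher among the 3 that passed the filter, and their summed level was 36.4 FPKM in the PBS pool and 3.44 FPKM in the NO pool. MYOD1, the factor that defines skeletal muscle, was at 0.246 and 0.0867 FPKM, and MYOG, its partner in differentiation, at 0.0639 and 0.0883 FPKM. TCF15, a somite factor, was the highest of the list at 24.7 FPKM in the PBS pool and was at 1.72 FPKM in the NO pool. PAX3 and MYF6, of the same list, were at 8.26 and 1.54 FPKM in the PBS pool and at 0.434 and 0.905 FPKM in the NO pool. The intervals of MYOD1, MYOG and MYF6 overlapped between the pools, and those of the other matched genes lay apart with the PBS pool higher. TNNC2, TNNI1 and ACTA1 were higher in the NO pool, and the part of skeletal muscle tissue in their levels was not tested. Of the erythroid list, the 4 genes that passed the filter were at least 2-fold higher, from 261 to 3400 FPKM in sum. Of 7 endothelial genes, 2 were at least 2-fold higher, against 3.65% of all genes that passed, and the 7 went from 76.9 to 128 FPKM in sum. The endothelial list was mixed, with intervals apart and the NO pool higher for 5 genes. EMCN was lower in the NO pool, at 14.3 and 11.3 FPKM, and the intervals of another gene overlapped.

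**Figure D5:**
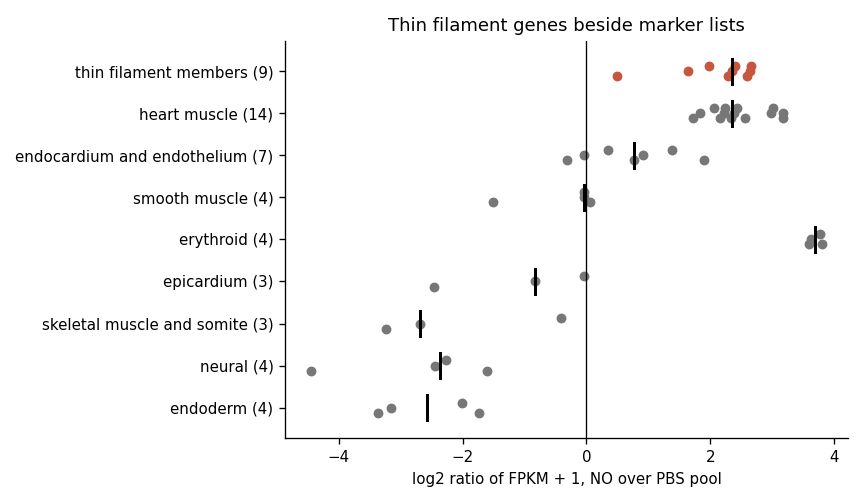
Log2 ratio of FPKM + 1, NO over PBS pool, of the thin filament genes (red) and of marker genes that passed the filter (grey), with the median of each list as a bar and the number of genes in brackets. Thin filament and heart muscle medians are 2.35 and 2.36, and those of the neural and endoderm lists are −2.36 and −2.58.

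Genes that build or regulate the actin filament had a smaller median difference than the 9 members. With paralogues included, 18 thin filament genes passed the filter, 11 of them at least 2-fold higher, with a median log2 difference of 1.43. The 9 paralogues among them that are not members had a median of 0.04, below that of the assembly genes. Of the 28 assembly genes listed, 24 were matched and 19 passed the filter, with 4 past 2-fold toward the NO pool, 1 past it toward the PBS pool and a median log2 difference of 0.36. Among all genes that passed the filter, 3.65% were past 2-fold toward the NO pool and 10.3% toward the PBS pool. XIRP1, an actin-binding protein of cell contacts in heart muscle, was at 8.37 FPKM (7.90 to 8.83) in the PBS pool and 45.7 FPKM (43.7 to 47.6) in the NO pool, or 4.98-fold higher. UNC45B, a chaperone that folds myosin, was 4.59-fold higher, SMYD1, a muscle methyltransferase, 4.57-fold higher, and CAP2, a protein that recycles actin in muscle, 3.98-fold higher. UNC45B and SMYD1 are known for myosin and the thick filament rather than for actin.

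The other capping and turnover genes named here were less than 2-fold different. CAPZA1, CAPZA2 and CAPZB, the subunits of the capping protein at the opposite filament end, had log2 differences of 0.59, 0.61 and 0.36. CFL2, the muscle cofilin, which severs actin, was at 83.01 and 114 FPKM, and DSTN, a related severing protein, at 492 and 369 FPKM. FHOD3, a formin needed for cardiac sarcomeres in mouse, was at 3.63 FPKM (3.34 to 3.92) and 5.74 FPKM (5.45 to 6.03).

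Transcription factors that drive actin genes differed little or in both directions. SRF, which binds muscle actin promoters, was at 55.1 FPKM (52.3 to 57.8) in the PBS pool and 57.6 FPKM (54.97 to 60.2) in the NO pool. MYOCD, its heart and smooth muscle cofactor, was at 12.1 FPKM (11.3 to 12.8) and 12.1 FPKM (11.5 to 12.8). Of the actin-sensing cofactors, MKL1 was at 11.4 FPKM (10.7 to 12.1) and 3.25 FPKM (2.96 to 3.54), or 2.92-fold lower, and MKL2 was at 5.78 FPKM (5.36 to 6.20) and 10.2 FPKM (9.75 to 10.6). The intervals of SRF and of MYOCD overlapped between the libraries, whereas MKL1 and MKL2 had theirs apart in opposite directions.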

How the data were processed

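RNA of 1 heart pool per group was sequenced by Illumina HiSeq. Per the series design text, the authors mapped reads with STAR 2.4.2a against chicken galGal4 (Ensembl release 81) and ran Cufflinks 2.2.1, then deposited FPKM with 95% interval bounds for 17108 annotated rows per library. Strand and poly(A) selection are not given in the sources used. Rows with the same symbol were summed. Log2 ratios of FPKM + 1 were taken in Python 3.11.15 with pandas 2.3.3, and genes averaging 1 FPKM or more were counted at 2-fold. An interval was read as 2 SD on each side, and (FPKM/SD) squared as implied fragments. Over 1194 low genes with whole implied fragments in both libraries (within 0.02), a fragment added 1.63 times more FPKM in the PBS pool, the shallower of the 2. Intervals of differences, shares and ratios combine the deposited intervals, treated as independent. Having 1 library in each group, no test or SD was possible.

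Members and lists were chosen with earlier results of these data known. Named genes were the members, all matched paralogues, up to 8 assembly genes past 2-fold, up to 3 genes per marker list with the highest PBS level, and the 3 genes nearest to TNNT2, TNNC1 and ACTC1. Some of these nearest genes are not reported here. FPKM of 2 libraries can shift together when a few abundant genes differ, so other scalings were tried. The calls were tried on simulated libraries that held counting error alone, which cannot show how they hold against the spread between pools. The RefSeq table matched 0 of the Ensembl identifiers and was used for names alone. Sequences and promoter motifs are not analysed here. Genes named beyond this rule (other assembly genes, LAD1, LSP1, PRR33, defining muscle factors, CSRP3, RYR2, MYOM2, MYOZ2, TTN, MYBPC3 and WT1) were chosen after their values were seen.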

Additional observations from a re-analysis of the deposited data

How the results depend on the processing

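The count of 8 members at least 2-fold higher was 8 under all 10 alternatives, and TPM1 was the exception in each. Not all of these could change the count. Each member stood on 1 row and averaged above 5 FPKM. The row choice, and dropping the filter or raising it to 5 FPKM, therefore could not alter it. The 1.5-fold call could only add members. So could a pseudocount of 0.1 FPKM and the scalings, which multiplied the NO pool by 1.10, 1.13 and 1.01. That leaves the pseudocount of 5 FPKM and the nearest interval bounds as settings that could remove a member. Of 63 recomputed member differences, 30 moved beyond their own interval and 0 changed sign. No sign could change, since the scalings raised the NO level and a pseudocount keeps the order of the pools. A difference reversed between nearest bounds would have been set to 0. Row choice could move no member, each scaling moved all members by a single shared factor, and nearest bounds move a difference by construction. TPM1 ran from 0.39 to 0.66 and LMOD2 from 1.62 to 2.55. The median of 2.35 became 2.49 with trimmed mean scaling, 2.52 with upper quartile scaling and 2.24 between the nearest interval bounds. The median of all genes went from −0.11 to 0.01 and 0.04 under the first 2 scalings, and the share of higher genes among those past 2-fold went from 26.2% to 36.8% and 39.2%. Over all genes, 395 higher and 1115 lower became 201 and 484 with a pseudocount of 5 FPKM, 262 and 697 between the nearest bounds, and 1038 and 2420 at 1.5-fold, where 7 assembly genes replaced 4. Shares of implied fragments are not per length and also depend on the interval widths. By these shares, TNNC2 differed by −1.35 percentage points, TPM4 by 14.6 and ACTC1 among striated actins by 5.20, in place of −2.14, 29.9 and 13.8. With members alone, the log2 change of the ratio to troponin T was −1.91 for tropomyosin (−0.75 with all paralogues) and −0.40 for tropomodulin (−0.74). Relative to other heart muscle genes, the median member was at −0.10 against the mean of the list, −0.82 against MYBPC3 alone and −0.67 against abundant genes. The cause of these shifts was not tested. No paired analysis was possible because each group holds 1 library. Intervals cover estimation within a library and say nothing of the spread between pools.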
